A study of Oryza sativa with 30 samples.

Results

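The 10 loci described here are the rice circadian clock genes LHY, PRR73, PRR37, PRR95, PRR59, PRR1, GI, LUX, ELF3-1 and ELF3-2, taken by locus identifier from 55986 loci counted in shoot apices of rice (Oryza sativa). All 10 passed the filter on low counts that left 22839 genes for testing. The apices came from Nipponbare (NB) and Taichung 65 (T65), both temperate japonica cultivars, raised in growth chambers (28 °C in the light period, 24 °C in the dark period) with no transgene or mutant named in the labels. Plants that were 6 weeks old on the day of transfer stood in long days of 16 h light and 8 h dark, called day 0, or had been moved to short days of 10 h light and 14 h dark for 4, 8 or 12 days. Day 0 is therefore the long-day group of each cultivar, and the 3 later days share 1 photoperiod. No group stayed in long days until day 4, 8 or 12. A difference from day 0 can thus follow the photoperiod or the age or stage of the plants, which cannot be told apart. With 3 libraries in 7 of the 8 groups and 2 at T65 day 12, there were 23 libraries of 8.611 to 24.95 M counts in genes (M is 1e+06). The labels do not say how many plants went into a library. Of 6 meristem genes checked, OSH1 (LOC_Os03g51690), OSH15, OSH6 and OSH71 lay between 45.1 and 206 counts per 1e+06 counts in genes (CPM) in every library, OSH3 between 2 and 6.01 CPM, and OSH43 between 0 and 0.318 CPM with 6 libraries at 0. Of 8 green leaf genes, 3 Rubisco small subunit loci reached at most 8.17 CPM, while CAB1R reached 79 CPM, LHCB 67.6 CPM, CAB2R 40 CPM, PSBO 23.9 CPM and RCA 12.6 CPM.

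In plants the clock is a loop of transcription factors whose transcripts peak one after another through the day. LHY, a MYB factor, peaks around dawn and represses genes of the evening. The pseudo-response regulators follow in sequence, PRR73 and PRR37 in the morning, PRR95 and PRR59 in the afternoon and PRR1 (TOC1 in Arabidopsis) around dusk, and they repress LHY in turn. GI, a large protein of the afternoon and evening, links the clock to flowering through the photoperiod pathway, and LUX and ELF3 belong to the evening complex, a night-time repressor known best from Arabidopsis. Because each of these transcripts cycles daily, a single harvest measures 1 point of the cycle. The sources used here give no hour of harvest, so a change of level and a shift of the daily rhythm against the harvest cannot be told apart. In whole apices a smaller share of cells expressing a gene and less RNA per cell cannot be told apart either. Members are compared with themselves across groups and not with each other, since transcript lengths were not used.

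The transcripts of PRR73, PRR37, PRR95 and GI were higher in all short-day groups than on day 0 in both cultivars, without overlap between the libraries. In NB each of the 9 short-day libraries lay above each of the 3 day 0 libraries for these 4 members, and in T65 the same 4 members separated the 8 short-day libraries from the 3 day 0 libraries. Among all tested genes, 2.73% showed this separation upwards in NB and 2.34% in T65. No member lay below day 0 in every short-day library, against 2.43% of all genes in NB and 1.78% in T65. Each cultivar has its own day 0, so the pair of comparisons shares no library.

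PRR73 (LOC_Os03g17570), a morning repressor of the PRR family, measured in NB 161, 160 and 194 CPM on day 0, then 258, 252 and 274 CPM on day 4, 278, 261 and 261 CPM on day 8, and 230, 235 and 247 CPM on day 12. In T65 it reached 225, 208 and 232 CPM on day 0, then 301, 328 and 303 CPM on day 4, 329, 338 and 362 CPM on day 8, and 325 and 362 CPM on day 12. The lowest short-day library of each cultivar was thus well clear of its long-day libraries, and T65 libraries exceeded NB libraries of the same day at all 4 days. By group mean the order from the top was T65 day 12, T65 day 8, T65 day 4, NB day 8, NB day 4, NB day 12, T65 day 0 and NB day 0. In that order T65 day 12 and day 8 overlapped, as did NB day 8 with NB day 4 and NB day 12 with T65 day 0.

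GI (LOC_Os01g08700) fell into levels that did not overlap: NB day 0, T65 day 0, NB in short days and T65 in short days, from the lowest up. NB day 0 held 148, 167 and 204 CPM and T65 day 0 held 214, 217 and 230 CPM. NB in short days was intermediate, with 247, 287 and 349 CPM on day 4, 301, 278 and 273 CPM on day 8 and 259, 289 and 288 CPM on day 12. T65 in short days was highest, with 364, 384 and 367 CPM on day 4, 443, 484 and 505 CPM on day 8 and 381 and 510 CPM on day 12. Among neighbours in the order of means, T65 day 4 did not overlap NB day 4, and NB day 12 did not overlap T65 day 0. T65 day 0 did not overlap NB day 0 either. The 3 NB short-day groups ran into each other. In T65, day 12 overlapped both day 4 and day 8, but each day 8 library lay above each day 4 library. That step did not pass (0.36 ± 0.12, adjusted p = 0.488, edgeR).

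PRR95 (LOC_Os09g36220), an afternoon member of the PRR family, had the widest range of group means of the 10 members, 2.22 on the log2 scale, wider than in 94.8% of all tested genes. In NB it measured 50.7, 44.3 and 68.6 CPM on day 0, 187, 136 and 171 CPM on day 4, 152, 95.7 and 126 CPM on day 8 and 73, 83.9 and 85.6 CPM on day 12. In T65 it measured 83.2, 60.5 and 80 CPM on day 0, 189, 162 and 143 CPM on day 4, 170, 181 and 218 CPM on day 8 and 223 and 282 CPM on day 12. In NB the mean was thus highest on day 4 and lower at each later day, though the day 12 libraries still lay above those of day 0, while in T65 both day 12 libraries exceeded every other library of the series.

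PRR37 (LOC_Os07g49460), also known as Hd2 or DTH7, a repressor of flowering in long days, measured 121, 132 and 143 CPM in NB on day 0, 308, 203 and 259 CPM on day 4, 216, 179 and 200 CPM on day 8 and 183, 182 and 188 CPM on day 12. In T65 the libraries held 169, 174 and 174 CPM on day 0, 231, 247 and 204 CPM on day 4, 236, 215 and 271 CPM on day 8 and 231 and 268 CPM on day 12. The NB day 4 libraries were spread most widely (256 ± 52.7 CPM, SD, n = 3). The 6 highest groups each overlapped the next in the order of means, and T65 day 0 and NB day 0 stood apart below them.

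**Figure D1:**
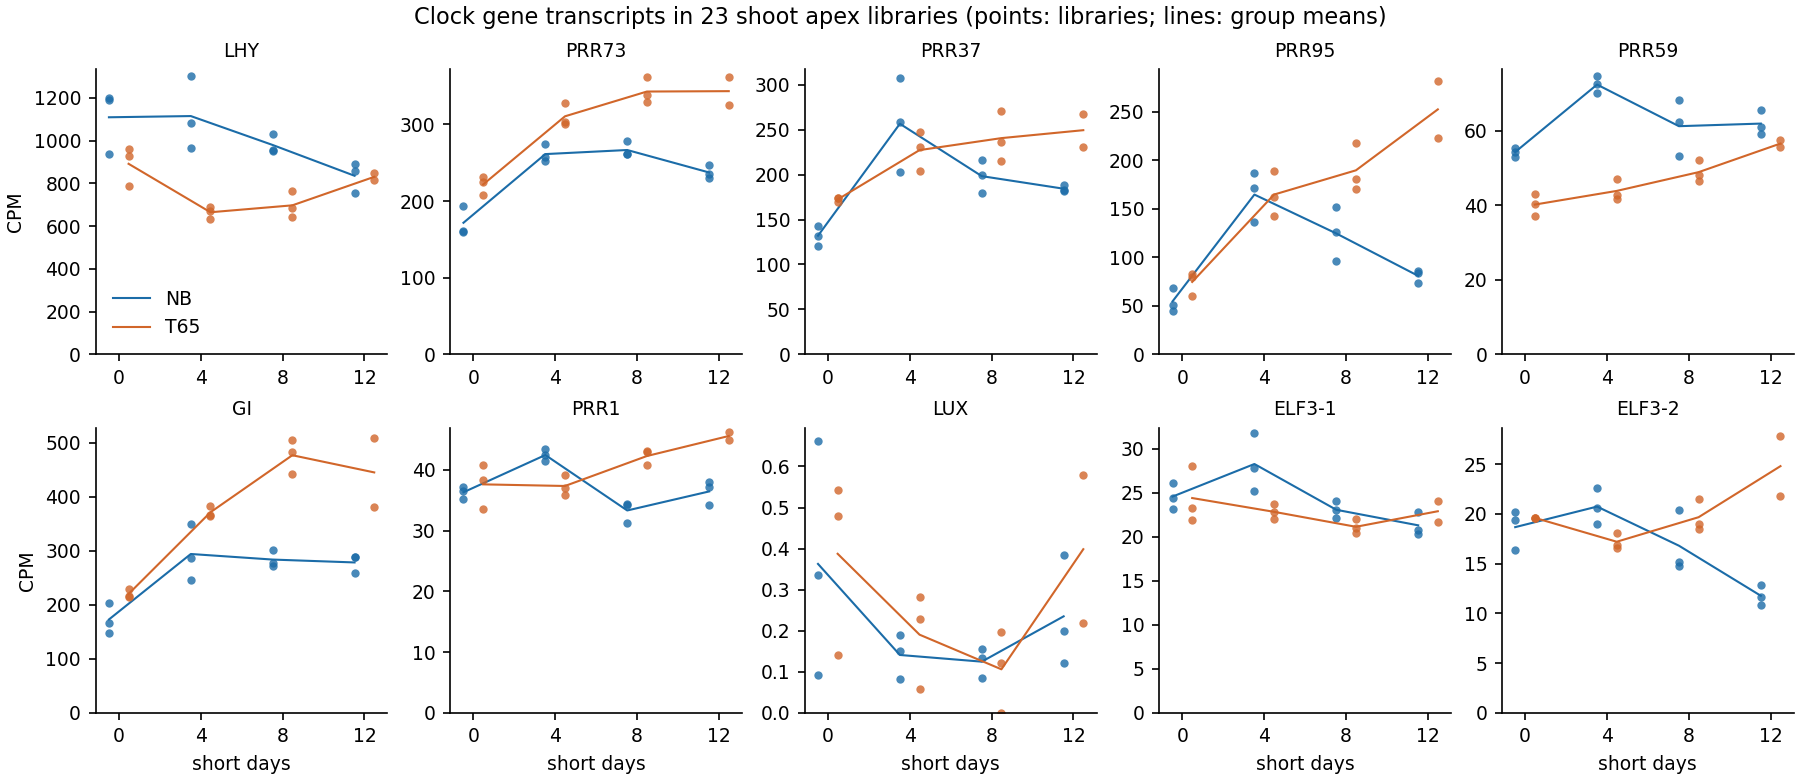
CPM of the 10 clock members against days in short days, 1 panel per member with its own axis from 0, with 1 point per library (blue NB, orange T65) and lines through the group means. The short-day points of PRR73, PRR37, PRR95 and GI lie above the day 0 points of the same cultivar, PRR95 parts between the cultivars at day 12, and LUX reaches 0.661 CPM at most.

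Fitted over the mean of the 3 short-day groups against day 0, 5 members were higher and none was lower in NB, against 4.22% of tested genes called higher and 4.15% called lower. The same 5 members were higher in T65, where 0.972% of tested genes were higher and 1.08% lower. The log2 fold changes of PRR95 were 1.12 ± 0.15 (SE) in NB and 1.41 ± 0.16 in T65, with adjusted p = 0.00011 and 4.09e-05 (edgeR quasi-likelihood test, Benjamini-Hochberg). GI differed by 0.72 ± 0.11 and 0.96 ± 0.11, PRR73 by 0.57 ± 0.07 and 0.58 ± 0.07, and PRR37 by 0.67 ± 0.10 and 0.47 ± 0.10, in NB and T65 in turn. PRR59 made up the 5, with 0.26 ± 0.07 and 0.30 ± 0.07. The median log2 fold change of the 10 members was 0.15 in NB and 0.22 in T65, beside -0.02 and 0.00 for all tested genes. In NB the calls of PRR73, PRR37, PRR95 and GI held under each of the 20 alternative settings run, and that of PRR59 under 14 of them. The 5 calls in T65 became 3 without T65 day 0 replicate 1, 3 without T65 day 0 replicate 2 and 3 without T65 day 12 replicate 2, and those of PRR37 and PRR59 were the ones lost. Libraries fell into 2 sets by the reads aligned to several places, and within the larger set of 16, where T65 day 0 and T65 day 8 have 1 library each, no member was called in T65, beside 3 genes of the whole table.

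**Figure D2:**
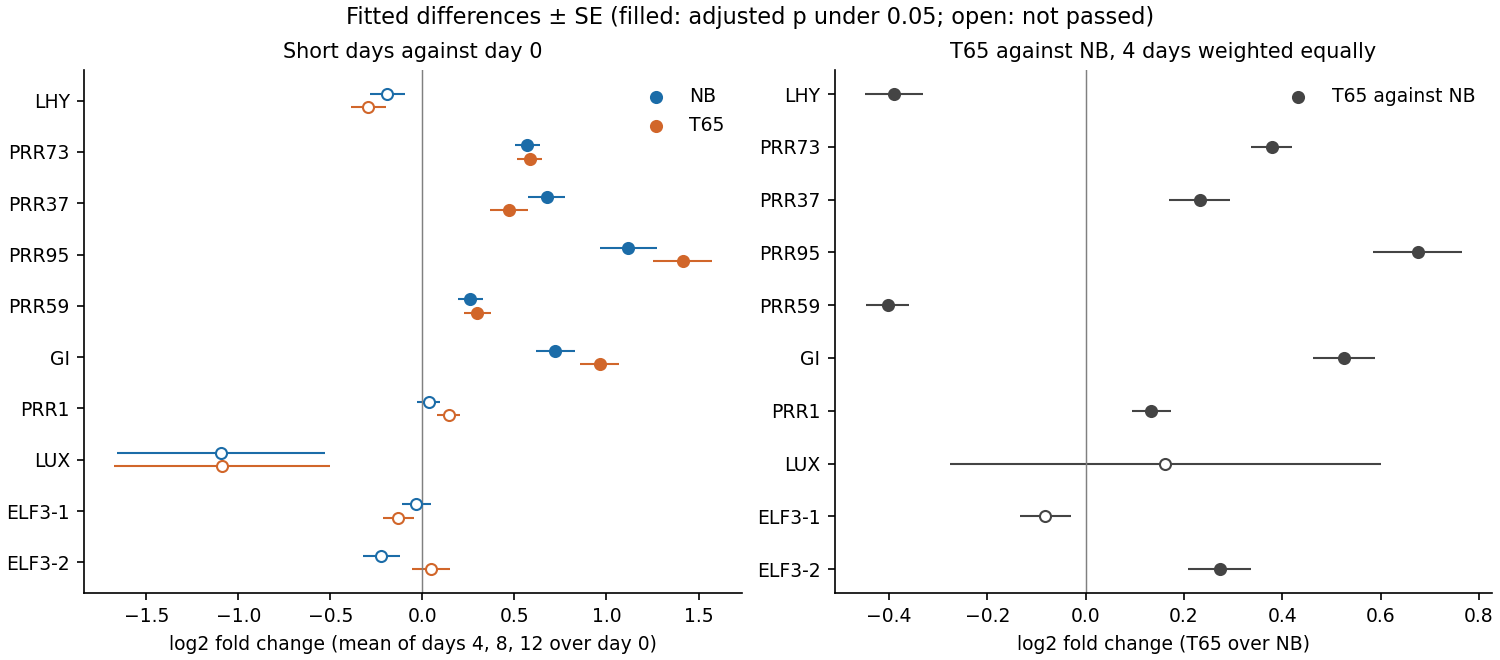
Log2 fold changes with SE bars for the 10 members, ordered roughly by the time of day at which they are known to peak: at left the mean of days 4, 8 and 12 over day 0 in NB (blue) and T65 (orange), at right T65 over NB with the 4 days weighted equally. Filled points passed an adjusted p of 0.05 and open points did not. At left the filled points are PRR73, PRR37, PRR95, PRR59 and GI, to the right of 0 in both cultivars. At right the filled points to the left of 0 are LHY and PRR59.

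PRR59 (LOC_Os11g05930), a PRR gene of the afternoon, had smaller short-day differences than PRR73, PRR37 and PRR95, and its levels were lower in T65 than in NB. Its NB libraries held 53 to 55.4 CPM on day 0, 70 to 74.6 CPM on day 4, 53.2 to 68.1 CPM on day 8 and 59.2 to 65.6 CPM on day 12. Its T65 libraries held 37 to 43.1 CPM on day 0, 41.7 to 47 CPM on day 4, 46.4 to 52.1 CPM on day 8 and 55.7 and 57.4 CPM on day 12. NB day 4 overlapped no other group, and T65 exceeded no NB library before day 12. PRR59 was higher than on day 0 at NB day 4 (0.42 ± 0.08, adjusted p = 0.00164, edgeR) and at T65 day 12 (0.49 ± 0.09, adjusted p = 0.0052, edgeR), and did not pass at the other 4 time points.

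PRR1 (LOC_Os02g40510), the rice relative of TOC1, moved within a narrow band of 31.3 to 46.2 CPM over all 23 libraries. Its spread within groups was among the lowest measured, with an SD of 0.0752 on the log2 scale against a median of 0.196 over all tested genes. Both T65 day 12 libraries (46.2 and 45 CPM) lay above all others, followed by NB day 4 (41.5, 42.5 and 43.4 CPM) and T65 day 8 (40.8, 43.1 and 43 CPM), and NB day 8 was lowest (34.3, 34.4 and 31.3 CPM). PRR1 was higher at NB day 4 than on day 0 (0.23 ± 0.07, adjusted p = 0.0368, edgeR), a call lost under 8 of 14 alternatives, and passed at no other time point. At T65 day 12 it stood at 0.28 ± 0.08 (adjusted p = 0.0611, edgeR). There it was called by DESeq2 (adjusted p = 0.0351) and by edgeR without T65 day 0 replicate 1 (adjusted p = 0.0434), and under no other alternative.

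LHY (LOC_Os08g06110), the dawn gene of the loop, was called higher in short days at no day in either cultivar. In NB its libraries held 1190, 936 and 1200 CPM on day 0, 963, 1300 and 1080 CPM on day 4, 1030, 954 and 953 CPM on day 8 and 755, 858 and 892 CPM on day 12. In T65 they held 959, 786 and 928 CPM on day 0, 669, 691 and 633 CPM on day 4, 684, 762 and 644 CPM on day 8 and 846 and 814 CPM on day 12. All T65 libraries of days 4 and 8 lay below all T65 libraries of day 0, and the NB day 12 libraries lay below those of NB day 0. Of these, NB day 12 passed (-0.41 ± 0.12, adjusted p = 0.0232, edgeR), a call lost under 6 of 14 alternatives, while T65 day 4 (-0.42 ± 0.12, adjusted p = 0.238) and T65 day 8 (-0.36 ± 0.12, adjusted p = 0.172) did not. At T65 day 4 LHY was called lower by DESeq2 (adjusted p = 0.0346) and by edgeR without the filter on low counts (adjusted p = 0.0154). Over the T65 short days it stood at -0.29 ± 0.09 (adjusted p = 0.115, edgeR), and it was called lower by DESeq2 (adjusted p = 0.041), without the filter (adjusted p = 0.0348) and with the T65 libraries alone (adjusted p = 0.0449). At NB day 12 13.2% of all genes were called, and at T65 day 4 0.149%.

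Of the evening complex members, LUX had the fewest counts. LUX (LOC_Os01g74020), a MYB-like factor, had 0 to 15 counts per library, with 25 counts in all at NB day 0 (95% exact Poisson interval 16.2 to 36.9, counting error only), 9 at NB day 4 (4.12 to 17.1), 6 at NB day 8 (2.2 to 13.1) and 12 at NB day 12 (6.2 to 21). In T65 the sums were 24 on day 0 (15.4 to 35.7), 9 on day 4 (4.12 to 17.1), 5 on day 8 (1.62 to 11.7) and 10 in the 2 libraries of day 12 (4.8 to 18.4). Single libraries of day 0 ranged from 2 to 15 counts in NB and from 2 to 13 in T65, so they overlapped the short-day libraries. No comparison of LUX passed, and its difference between short days and day 0 in NB was -1.10 ± 0.57 (adjusted p = 0.235, edgeR). The CV between libraries was 78.8% at NB day 0 and 55.6% at T65 day 0.

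ELF3-1 (LOC_Os06g05060), known as Hd17 or Ef7 from flowering-time variation in rice, stayed between 20.3 and 31.8 CPM in all libraries. It passed in none of the 17 comparisons, and its group means spanned 0.413 on the log2 scale, against a median of 0.615 over all tested genes. The highest group was NB day 4 with 31.8, 25.2 and 27.8 CPM, and each group overlapped the next in the order of means.

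ELF3-2 (LOC_Os01g38530), the second rice gene of this type, differed from ELF3-1 in its course. In NB it held 20.2, 19.4 and 16.4 CPM on day 0, 19, 22.6 and 20.6 CPM on day 4, 20.4, 14.8 and 15.2 CPM on day 8 and 12.9, 11.6 and 10.8 CPM on day 12. In T65 it held 19.6 CPM in each library of day 0, 16.6 to 18.1 CPM on day 4, 19, 21.5 and 18.5 CPM on day 8 and 21.8 and 27.8 CPM on day 12. The 3 NB day 12 libraries were the lowest of the 23. ELF3-2 fell at NB day 12 against day 0 (-0.67 ± 0.13, adjusted p = 0.0015, edgeR), and T65 day 12 stood at 0.32 ± 0.14 against its own day 0 (adjusted p = 0.181).

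Counted by day, 6 members were higher than on day 0 at NB day 4, where 10% of tested genes were called higher. At NB day 8 4 were higher, with 1.27% of all genes called higher. At NB day 12 4 were higher and 2 lower, with 6.38% and 6.86% of all genes called in these directions. In T65 3 members were higher on day 4, beside 0.114% of all genes, 3 on day 8, beside 0.486%, and 5 on day 12, beside 2.9%. With the filter on low counts edgeR called none lower at any of the 3 days. Without that filter edgeR called LHY lower at T65 day 4 (adjusted p = 0.0154), as did DESeq2 (adjusted p = 0.0346). The 3 days of a cultivar share its day 0 libraries. PRR73, PRR95 and GI passed at all 6 time points (PRR95 at NB day 12 under 7 of 14 alternatives), and PRR37 at all 3 in NB and at day 12 in T65. PRR37 at T65 day 8 stood at 0.48 ± 0.12 (adjusted p = 0.054, edgeR) and was called under 4 alternatives, DESeq2 (adjusted p = 0.0147), no filter, the T65 libraries alone and the libraries of the 2 groups alone. The PRR37 call was lost under 5 of 14 alternatives at NB day 8, 2 of 14 at NB day 12 and 6 of 13 at T65 day 12. At T65 day 4, where 34 genes of the whole table passed, PRR95 stood at 1.14 ± 0.18 (adjusted p = 0.00548), GI at 0.75 ± 0.12 (adjusted p = 0.00814) and PRR73 at 0.49 ± 0.08 (adjusted p = 0.00814). No member passed at T65 day 4 without T65 day 0 replicate 2, and 1 without T65 day 4 replicate 2. The 6 calls at NB day 12 became 3 without NB day 0 replicate 1, and the 5 at T65 day 12 became 3 without T65 day 12 replicate 2.

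Within the constant short-day photoperiod edgeR with the filter made 3 calls in NB steps and none in T65 steps. This difference between the cultivars was not tested step by step. From day 4 to day 8 in NB, PRR37 (-0.37 ± 0.12, adjusted p = 0.0492) and PRR1 (-0.35 ± 0.08, adjusted p = 0.00464) fell, beside 5.25% of all genes called lower, and 9 of the 10 fitted values were below 0, all but PRR73 (0.03 ± 0.08). The PRR37 call was lost under 10 of 14 alternatives, among them leaving out NB day 4 replicate 1, NB day 4 replicate 3, NB day 8 replicate 2 or NB day 8 replicate 3, and without NB day 8 replicate 1 4 members passed. From day 8 to day 12 in NB, ELF3-2 fell (-0.51 ± 0.13, adjusted p = 0.0437, edgeR), beside 0.871% of all genes, a call lost under 8 of 14 alternatives, which include leaving out NB day 8 replicate 1, NB day 8 replicate 3 or any 1 of the NB day 12 libraries. Without NB day 8 replicate 2, 2 members passed in that step. PRR95 stood at -0.62 ± 0.18 in that step (adjusted p = 0.0691). In T65 no member passed in either step by edgeR with the filter on low counts. Of all genes 0% were called from day 4 to 8 and 0.736% from day 8 to 12. An unadjusted p under 0.05 was seen for 2 members from day 4 to 8 and 3 from day 8 to 12. Without the filter edgeR called PRR95 from day 8 to 12 (0.41 ± 0.12, adjusted p = 0.0246). DESeq2 called 0 in both of these steps.

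The levels of 8 of the 10 members differed between the cultivars over the 4 days, 6 higher and 2 lower in T65, against 14.9% of all tested genes called higher and 14.9% called lower. T65 was higher for PRR95 (0.68 ± 0.09), GI (0.53 ± 0.06), PRR73 (0.38 ± 0.04), ELF3-2 (0.27 ± 0.06), PRR37 (0.23 ± 0.06) and PRR1 (0.13 ± 0.04), and lower for PRR59 (-0.40 ± 0.04) and LHY (-0.39 ± 0.06). LUX and ELF3-1 did not pass. Cultivar accounted for 58.7% of the variance of log2 CPM of PRR59 and 48% of that of LHY, against a median of 8.47% over all genes. PRR73, PRR37, PRR95 and GI were thus higher both in short days and in T65, and PRR59 was higher in short days and lower in T65.

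The response to 12 short days differed between the cultivars for PRR95 and ELF3-2. For PRR95 the T65 response exceeded the NB response by 1.18 ± 0.26 on the log2 scale (adjusted p = 0.0122, edgeR interaction test), from 0.57 ± 0.18 in NB and 1.75 ± 0.19 in T65. For ELF3-2 the difference was 0.99 ± 0.19 (adjusted p = 0.00448, edgeR interaction test). These were 2 members of 10, both higher, where 3.62% of all genes were called higher in the same test. T65 day 12 has 2 libraries, and without its replicate 2, the library with 8.61 M counts, no member passed, nor did any in the 16 libraries of the larger set. At day 4 the largest interaction was that of PRR37 (-0.55 ± 0.17, adjusted p = 0.101). By edgeR with all 23 libraries and the filter, no member passed at day 4, at day 8 or for the mean of short days. Of all genes 1.83%, 0.00876% and 0.0482% were called in turn, and 5, 2 and 0 members had an unadjusted p under 0.05. DESeq2 called PRR37 alone at day 4, and edgeR without the filter called it as well (adjusted p = 0.0077). Without NB day 4 replicate 2, 1 member passed at day 4.

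**Figure D3:**
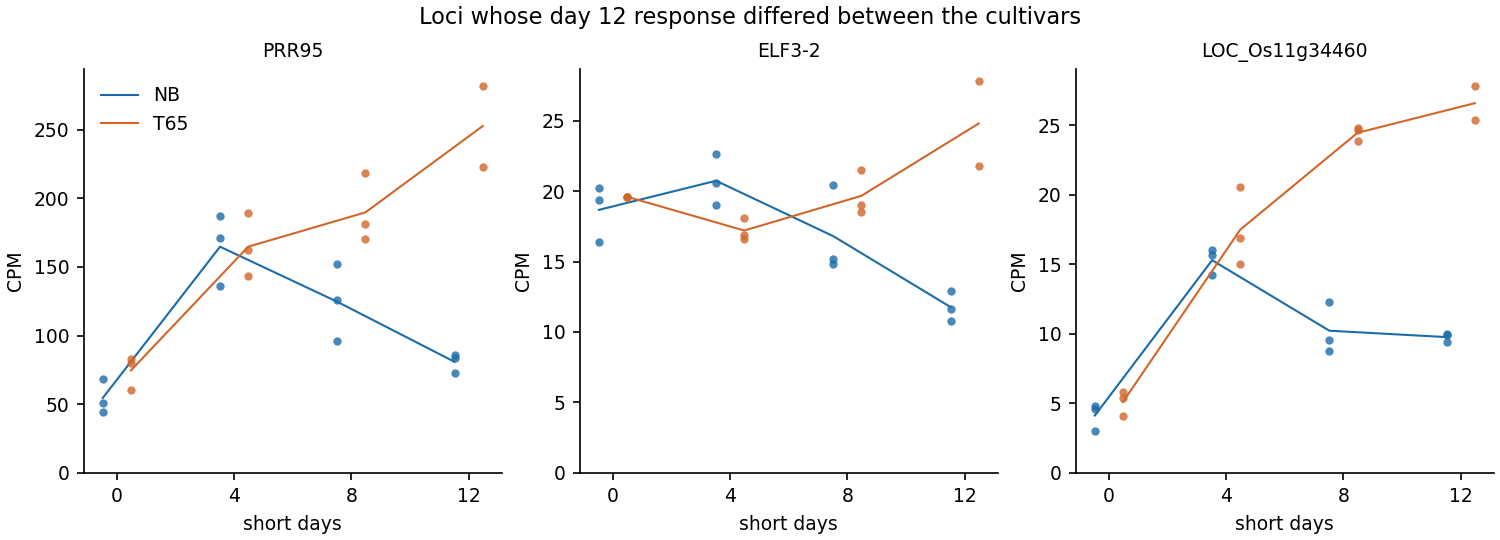
CPM against days in short days for PRR95, ELF3-2 and LOC_Os11g34460, with 1 point per library (blue NB, orange T65), lines through the group means and axes from 0. The NB and T65 points do not overlap on day 12, where T65 is higher in all 3 panels.

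PRR73, PRR37, PRR95 and GI varied together across the series. Over the 23 libraries Pearson's r of log2 CPM among these 4 ranged from 0.797 to 0.969 over 6 pairs, with PRR73 and GI at 0.969 and PRR73 and PRR95 at 0.931. LHY ran against all 4, with r from -0.615 (GI) to -0.383 (PRR95). PRR59 followed LHY (0.573) more than GI (-0.0129) or PRR95 (0.168). These values are descriptions over libraries that share groups, dissection and scaling. The 4 are grouped here by their shared rise over day 0 in the same libraries, which itself raises r among them. After group means were subtracted, so that what is left is the difference between replicate libraries of 1 group, the 6 pairs were still positive (0.232 to 0.774), led by PRR73 and GI at 0.774 and PRR73 and PRR95 at 0.744. Of all 45 pairs of members 32 were above 0 in these deviations. Pairs with PRR59 reached 0.592 (PRR95) and 0.494 (LHY), above the lowest of the 6. Pairs of LHY with the 4 then ranged from -0.439 (PRR37) to 0.308 (PRR73), with PRR37 the one pair below 0.

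**Figure D4:**
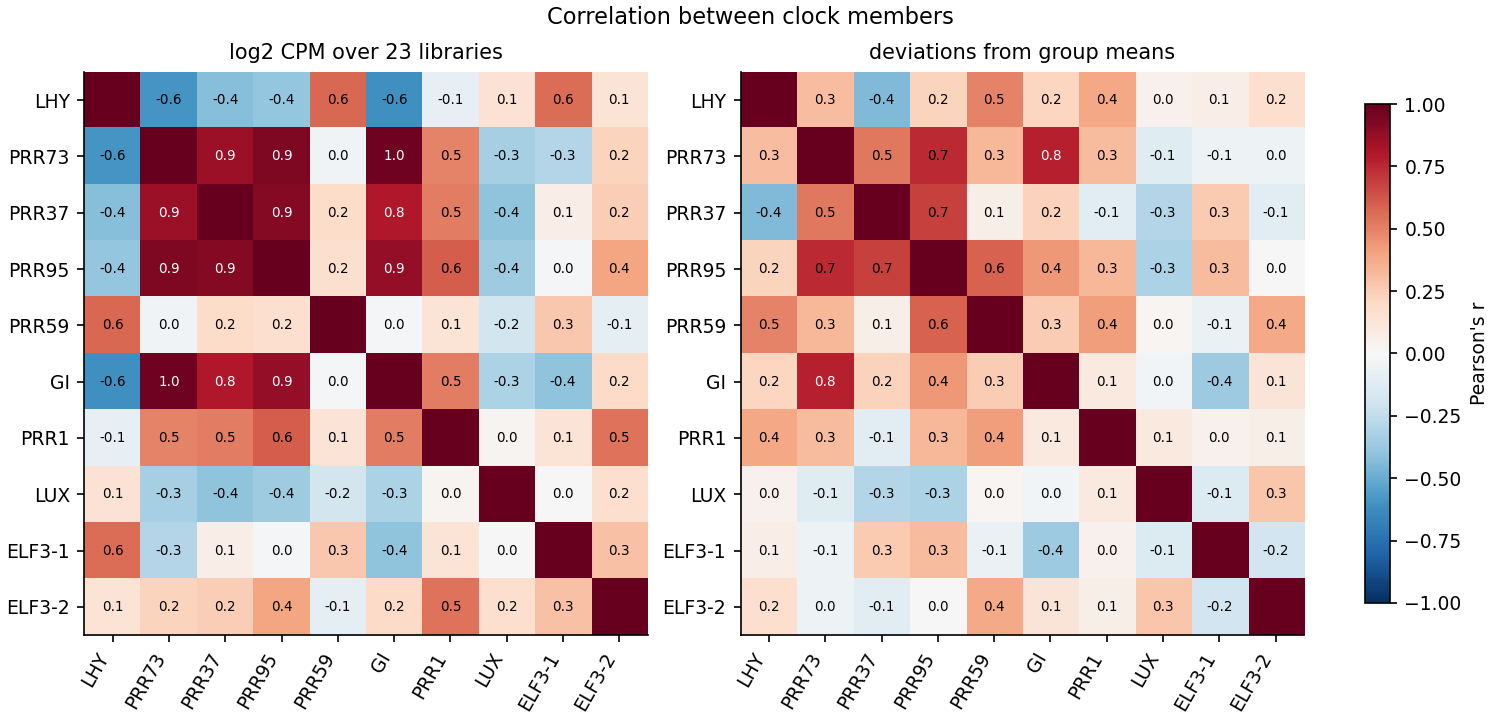
Pearson's r between the 10 members, at left of log2 CPM over 23 libraries and at right of the deviations of the same values from their group means, printed to 1 decimal. The block of PRR73, PRR37, PRR95 and GI is positive in both, from 0.797 to 0.969 at left and from 0.232 to 0.774 at right.

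The genes with the most similar course to each member, by r of log2 CPM over the 23 libraries among all tested genes outside the 10, carried no symbol in the files. The 2 nearest to GI were LOC_Os07g34570 (r = 0.943) and LOC_Os11g34460 (r = 0.94), and the same 2 were nearest to PRR73 (0.937 and 0.934). PRR37 was nearest to LOC_Os01g59080 (0.955) and LOC_Os05g51050 (0.94), PRR95 to LOC_Os10g30850 (0.949) and LOC_Os01g03110 (0.939), and PRR59 to LOC_Os01g03660 (0.918) and LOC_Os04g44730 (0.887). PRR1 was nearest to LOC_Os05g09000 (0.879) and LOC_Os09g13940 (0.836), LHY to LOC_Os01g60110 (0.85) and LOC_Os05g32970 (0.848), ELF3-1 to LOC_Os08g01090 (0.86) and LOC_Os06g01670 (0.838), and ELF3-2 to LOC_Os08g29150 (0.91) and LOC_Os05g38730 (0.89). LUX, with few counts, reached 0.739 with LOC_Os03g63500 and 0.712 with LOC_Os03g06460.

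LOC_Os11g34460 was also 1 of 15 loci on a list of clock-associated and light input genes, where it stands as FKF1 from recalled nomenclature that the RefSeq table used here does not hold. In NB it measured 2.98, 4.58 and 4.82 CPM on day 0, 14.2, 15.7 and 16 CPM on day 4, 10.2 ± 1.84 CPM (SD, n = 3) on day 8 and 9.96, 9.94 and 9.4 CPM on day 12. T65 libraries had 5.42, 4.1 and 5.8 CPM on day 0, 15 to 20.6 CPM on day 4, 24.7, 24.8 and 23.9 CPM on day 8 and 25.4 and 27.8 CPM on day 12. Each short-day library lay above each day 0 library, as for GI. It rose at all 6 time points, by 1.48 ± 0.14 over the NB short days (adjusted p = 1.53e-06, edgeR) and by 2.12 ± 0.15 over the T65 short days (adjusted p = 5.47e-08, edgeR). Its T65 response exceeded that of NB at day 12 by 1.12 ± 0.25 (adjusted p = 0.0112, edgeR interaction test). T65 day 12 has 2 libraries, and the calls of loci on this list were not checked under the alternatives.

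Of the 14 tested loci of that list, 1 was higher and 1 lower over the NB short days (LOC_Os11g34460, and LOC_Os02g53140, listed as COP1, at -0.33 ± 0.08), and 1 was higher over the T65 short days, with medians of -0.03 and -0.02 beside -0.02 and 0.00 for all tested genes, of which 8.36% and 2.05% were called. At NB day 4, where 20.3% of all genes were called and 10% were higher, 4 of 14 were higher, the phytochrome photoreceptor genes PHYA (LOC_Os03g51030, 0.33 ± 0.10), PHYB (LOC_Os03g19590, 0.25 ± 0.08) and PHYC (LOC_Os03g54084, 0.36 ± 0.09) beside LOC_Os11g34460, and the casein kinase gene CKI (Hd16, LOC_Os03g57940, -0.30 ± 0.09) was lower. At NB day 12, where 13.2% of all genes were called, LOC_Os11g34460 was higher and PHYA (-0.79 ± 0.10), LOC_Os02g36380 (listed as CRY1a, -0.56 ± 0.13) and LOC_Os02g53140 (-0.45 ± 0.11) were lower. In NB the PHYA level was 144 ± 14.8 CPM on day 0 against 83.3 ± 3.85 CPM on day 12 (SD, n = 3). In T65 it was 181 ± 20.8 CPM on day 0 (SD, n = 3) and passed at no day, and the cultivars' responses differed at day 12 (0.86 ± 0.15, adjusted p = 0.00274, edgeR interaction test). That of LOC_Os02g53140 differed as well (0.59 ± 0.16, adjusted p = 0.0317, edgeR), so that with LOC_Os11g34460 3 of 14 were called in this test, beside 6.81% of all genes. These 3 calls rest on the 2 libraries of T65 day 12 and were not checked under the alternatives. From NB day 4 to day 8, where 12% of all genes were called, LOC_Os11g34460 (-0.60 ± 0.16), PHYA (-0.59 ± 0.10), PHYB (-0.24 ± 0.08) and PHYC (-0.28 ± 0.09) fell and CKI rose (0.35 ± 0.09), and PHYA fell again to day 12 (-0.54 ± 0.10), beside 2.08% of all genes called. Between T65 day 8 and day 12 Hd1 (LOC_Os06g16370), a CONSTANS-like flowering regulator downstream of GI, rose by 1.70 ± 0.38 (adjusted p = 0.0419, edgeR), 1 of 14 beside 0.736% of all genes. Its levels were low, at 0.524 to 0.749 CPM on T65 day 8 and 1.84 and 2.54 CPM in the 2 libraries of day 12. T65 day 0 held 0.851 to 1.34 CPM, and Hd1 was not called at T65 day 12 against day 0. The call was not checked under the alternatives. Over the 4 days 5 of the 14 were higher in T65 and Hd1 was lower (-1.54 ± 0.16), beside 29.8% of all genes called. The 5 were LOC_Os11g34460 (0.81 ± 0.08), PHYA (0.47 ± 0.05), LOC_Os02g36380 (0.19 ± 0.07), LOC_Os06g47890 (listed as ZTL1, 0.13 ± 0.04) and LOC_Os03g55389 (2.66 ± 0.07). The last, listed as CK2A or Hd6, stood at 16.2 to 29.2 CPM in NB libraries and 114 to 154 CPM in T65 libraries. Ghd7 by its listed locus LOC_Os07g15770 had 0 counts in all 23 libraries.

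Markers of other tissue and of handling moved with some of these groups. Of 8 green leaf genes 4 were higher over the NB short days (median log2 fold change 1.09), beside 4.22% of all tested genes, and 0 over the T65 short days (median 0.43), beside 0.972%, by edgeR. The T65 response of the leaf genes minus that of NB had a median of -0.74, with 7 of 8 values below 0. Their summed level was 52.5 to 54.5 CPM at NB day 0 and 57.6 to 186 CPM in the NB short-day libraries, and 46.5 to 77.5 CPM at T65 day 0 and 74.2 to 142 CPM in the T65 short-day libraries. Over the 4 days 3 of the 8 were lower in T65, beside 14.9% of all genes, and 1 was lower in the interaction at day 12, beside 6.81% of all genes called in either direction.

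Of 5 tested heat and wounding genes 3 were higher at T65 day 12 (median 2.03), beside 2.9% of all genes, and 2 were below 0 (lowest -0.41). The T65 day 12 libraries summed to 159 and 166 CPM over this list, against 49.1 to 69.1 CPM at T65 day 0. The same number, 3 of 5, were higher from T65 day 8 to day 12 (median 1.78, beside 0.736% of all genes called in either direction). So were 3 of 5 in T65 over the 4 days (beside 14.9%) and in the interaction at day 12 (median 1.80, beside 3.62% of all genes). In the interaction 1 of the 5 was below 0 (-2.02). PRR95 and ELF3-2 were called higher in that interaction and in T65 over the 4 days. At T65 day 4 the heat and wounding genes summed to 97.8 to 105 CPM, with 0 called, beside 0.149% of all genes. At NB day 4 1 of them was higher and 1 lower, beside 20.3% of all genes called. At NB day 12 0 were higher and 1 was lower, beside 13.2% of all genes called. There the list summed to 19.4 to 34.1 CPM, against 42.8 to 61.5 CPM at NB day 0. Of 5 tested meristem genes OSH71 (-0.56 ± 0.13) and OSH3 (-0.94 ± 0.20) were lower at T65 day 8 than on day 0, beside 1.06% of all genes called, and all 5 were below 0 (median -0.45). The meristem list summed to 319 to 338 CPM at T65 day 8 and to 411 to 484 CPM at T65 day 0. Over all short days 1 of the 5 was lower in NB and 0 were called in T65, and the 3 secondary wall genes had no call in either cultivar. Of all genes 8.36% were called over the NB short days and 2.05% over the T65 short days. The part of leaf tissue, handling and meristem content in the clock gene results was not tested.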

How the data were processed

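Shoot apices of 2 rice cultivars were profiled by RNA sequencing. The authors deposited 1 file of raw counts per gene for each of 23 libraries, 5 of which they had merged from several runs, so the 30 samples of the labels give 23 libraries. The submitters' processing notes name edgeR 3.6.4 with R 3.1.0, HTSeq, TopHat2 and Bowtie2. No source used here gives the genome build, annotation or strand setting, so reads of a gene and of one that overlaps it cannot be separated. Whether reads of both cultivars align equally well to the genome used was not tested, which bears on levels compared between the cultivars. Reads aligned to several places are not in the gene counts, and relative to assigned reads they came to 5.76 to 6.71% in 7 libraries and 9.59 to 10.9% in 16, reads in no gene to 4.72 to 5.51% and ambiguous reads to 2.01 to 2.44%, all left out of library sizes.

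The counts were tested in R 4.3.3 with the quasi-likelihood functions glmQLFit and glmQLFTest of edgeR 4.0.16 (two-sided), with TMM scaling, filterByExpr and all 8 groups in 1 model with 15 residual degrees of freedom. P-values were adjusted by Benjamini-Hochberg over 22839 genes within each of 17 comparisons at 0.05, and called means an adjusted p under 0.05. The SE is the log2 fold change divided by the square root of F. CPM use TMM-scaled totals, and correlations use log2 CPM with a prior count of 2. The labels number the replicates without saying whether plants or harvests were separate, so the p-values reflect a spread between libraries that may be technical. Libraries of a group were not duplicates (chi-square per gene 5.61 to 48.4). In their deviations from the group means, same-numbered NB libraries correlated above 0.1 in 7 of 18 pairs, and NB libraries of different number in 1 of 36. In T65 these were 2 of 15 and 9 of 30 pairs. The model has no replicate term, and replicate numbers entered as a block in 1 alternative only. Alternatives were RLE scaling, no filter, DESeq2 1.42.0, other sets of libraries, a replicate block and leaving out each library.

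The members, lists and tests were chosen with earlier results of these data known. Members were given by locus, and 8 of the 10 symbols were found in the RefSeq gene table of assembly ASM3414082v1, on the chromosome in the locus name (PRR59 and ELF3-2 were not). Symbols of the other lists were recalled, and of the 15 clock-associated loci those of PHYA, PHYB, PHYC, CKI and Hd1 were found there. Beyond the members, loci of that list that passed and the 2 most correlated genes per member were named. Promoter and protein sequences were not used here.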

Additional observations from a re-analysis of the deposited data

Results flagged for a closer look

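The response to short days differed between the cultivars at day 12 for 2 members, by the interaction term of the model over all genes. The T65 response of PRR95 exceeded that of NB by 1.18 on the log2 scale, and that of ELF3-2 by 0.99. PRR95 was higher in T65 in both day 12 libraries (223 and 282 CPM) than in all 3 NB day 12 libraries (73 to 85.6 CPM), and ELF3-2 likewise (21.8 and 27.8 against 10.8 to 12.9 CPM).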

How the results depend on the processing

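Of the members' fold changes recomputed under the alternatives, 2737 kept their side of the threshold, 100 lost a call, 27 gained one and 0 called values changed sign (sign changes of values called under neither setting were not counted). The 16 libraries with more reads aligned to several places, where T65 day 0 and T65 day 8 have 1 library each, gave the lowest counts. There 2 members were called at NB day 8, 2 at NB day 12, 0 at T65 day 4, 0 at T65 day 8, 0 at T65 day 12, 0 over the T65 short days, 0 and 0 in the NB steps from day 4 to 8 and from day 8 to 12, 0 for the interaction at day 12 and 5 between the cultivars. Of 23646 genes tested in that set, 97 were called at NB day 8, 1187 at NB day 12, 1, 2 and 13 at T65 days 4, 8 and 12, 3 over the T65 short days, 692 and 39 in the NB steps, 13 for that interaction and 3651 between the cultivars. At an adjusted p of 0.01, 3 members were called at NB day 12, 3 over the T65 short days, 1 and 0 in the NB steps and 1 for the interaction at day 12. Without the filter 5 were called at T65 day 4, 2 in the NB step from day 8 to 12, 1 in the T65 step from day 8 to 12 and 1 for the interaction at day 4. DESeq2 called 2 in the NB step from day 8 to 12 and 1 for the interaction at day 4. RLE scaling called 1 in the NB step from day 4 to 8, the cultivar's own libraries gave 1 and 0 in the NB steps, and the groups compared alone 0 and 0. With 1 library left out at a time, counts ranged from 3 to 5 at NB day 12, from 0 to 3 at T65 day 4, from 3 to 5 at T65 day 12 and over the T65 short days, from 1 to 4 and from 0 to 2 in the NB steps, and from 0 to 1 and from 0 to 2 for the interactions at days 4 and 12. The cause of these changes was not tested.

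With a replicate block, 1 member was called in the NB step from day 4 to 8 and no other count of members moved by over 1.5 times. Same-numbered libraries correlated above 0.1 in 7 of 18 pairs in NB and 2 of 15 in T65, and libraries of different number in 1 of 36 and 9 of 30, and 12 of 23 libraries correlated best with their own number. LUX had 0 to 15 counts per library, and depth and the spread between libraries were not separated for it.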
